A study of Mus musculus with 24 samples.

Results

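The nuclear-encoded genes of oxidative phosphorylation were described in 3 RNA extracts of mouse brain measured on 24 short-oligonucleotide arrays. A gene belonged to the set when its symbol follows the naming of complex subunits: Nduf with a letter a, b, c, s or v and a digit for complex I, Sdha to Sdhd for complex II, Uqcr for complex III, Cox4 to Cox8 for complex IV and Atp5 for complex V. These patterns found 81 of the 18193 genes with a probe set that carries exactly 1 gene symbol, 35 of complex I, 4 of complex II, 8 of complex III, 17 of complex IV and 17 of complex V. A probe set is the group of oligonucleotides that together measure a transcript, and each gene was represented by the probe set with the highest mean over the 24 arrays. No filter on low values was applied, so all 81 genes were tested. Ndufa4 was counted with complex I by its symbol, although its protein is now assigned to complex IV.

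All mice were males of 12 ± 1 weeks. From light onset they were kept awake for 6 h by gentle handling or left undisturbed, and tissue was taken at zeitgeber time 6. In the pull-down, brains were fixed by formaldehyde perfusion and polyadenylated RNA of cells expressing Homer1a, the short and activity-induced product of the Homer1 gene, was recovered on anti-FLAG beads. It was measured after sleep deprivation (n = 6) and in controls (n = 6). Total RNA of the supernatant left by the beads (n = 4) stands in the labels for cells negative for Homer1a. Whole-brain total RNA came from sleep-deprived (n = 4) and control mice (n = 4). The labels name the amplification kit for immunoprecipitated RNA, and the mouse strain and the transgene with its promoter are not given in the sources used here. For supernatant 13 the title and the source field name opposite treatments, so the 4 supernatants were used as 1 group. A number after a group name is that of the array's label.

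Oxidative phosphorylation makes most of a neuron's ATP at the inner mitochondrial membrane. Complexes I and II pass electrons from NADH and succinate to ubiquinone, complex III hands them on to cytochrome c and complex IV to oxygen, while complexes I, III and IV pump protons that drive the ATP synthase, complex V. Complexes I, III, IV and V each join a few subunits read from mitochondrial DNA with many read from nuclear genes, and complex II is nuclear throughout. The factors NRF1 (nuclear respiratory factor 1), GABP of the ETS family, YY1 and Sp1 are known for sites in the promoters of these nuclear genes.

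Promoter sequences are shown for members with at least 2 separate NRF1 matches before the start, because this feature was not used to choose the genes. RefSeq promoter windows of build GRCm38.p6, from 250 bases before to 50 after the start, were matched to 66 of the 81 members (71 windows). The strings searched, on both strands and each on its own so that matches may overlap, were GCGCANGCG for NRF1, CCGGAAG for ETS factors, AAGATGGCG for YY1 and GGGGCGGGG for Sp1. The NRF1 string stood in 19 of 71 member windows (26.8%), against 6.25% of all 32851 windows. The ETS string stood in 23.9% against 8.86%, the YY1 string in 8.45% against 1.4% and the Sp1 string in 15.5% against 11.4%. Member windows also had a higher median GC content, 58.3% against 52.7%, and its part in these shares was not tested. The 250 bases before the start of Ndufa8 and Ndufb4, accessory subunits of complex I, Sdha, the flavoprotein of complex II, and Cox6a1, a subunit of complex IV, hold at least 2 separate NRF1 matches, printed in capitals:
Ndufa8 (chr2:36049339-36049588, minus strand): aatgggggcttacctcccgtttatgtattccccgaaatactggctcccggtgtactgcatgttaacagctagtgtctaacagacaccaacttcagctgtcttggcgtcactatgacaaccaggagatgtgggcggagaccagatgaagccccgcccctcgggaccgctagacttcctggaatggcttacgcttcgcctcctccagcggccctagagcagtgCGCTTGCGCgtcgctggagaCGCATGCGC
Ndufb4 (chr16:37654369-37654618, minus strand): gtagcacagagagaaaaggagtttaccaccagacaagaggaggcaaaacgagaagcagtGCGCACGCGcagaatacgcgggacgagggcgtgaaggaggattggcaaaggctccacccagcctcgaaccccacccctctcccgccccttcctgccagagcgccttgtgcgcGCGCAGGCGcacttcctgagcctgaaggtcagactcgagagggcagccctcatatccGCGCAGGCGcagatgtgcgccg
Sdha (chr13:74350241-74350490, minus strand): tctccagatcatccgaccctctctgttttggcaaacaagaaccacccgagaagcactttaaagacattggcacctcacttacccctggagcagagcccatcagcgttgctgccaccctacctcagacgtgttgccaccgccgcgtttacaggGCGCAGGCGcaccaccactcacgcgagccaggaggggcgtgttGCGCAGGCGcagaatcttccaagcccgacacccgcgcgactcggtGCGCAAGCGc
Cox6a1 (chr5:115348959-115349208, minus strand): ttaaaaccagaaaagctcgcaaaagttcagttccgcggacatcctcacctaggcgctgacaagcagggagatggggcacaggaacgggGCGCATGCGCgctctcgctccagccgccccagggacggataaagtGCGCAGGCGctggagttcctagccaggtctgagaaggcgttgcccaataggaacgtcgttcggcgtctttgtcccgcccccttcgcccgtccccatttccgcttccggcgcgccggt
Ndufb4 and Sdha hold 3 separate matches each, and Ndufa8 and Cox6a1 hold 2. Against whole brain the pull-down differences of Ndufa8, Ndufb4, Sdha and Cox6a1 were -1.55, -1.33, -0.06 and 0.56 log2 units. Further windows with 2 or more matches, which overlap on the 2 strands or reach past the start, were those of Uqcrc1 (-1.76), Atp5g2 (-2.72) and Atp5k (0.48). These 7 members lay on both sides of 0.

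Values are log2 RMA intensities, differences are in log2 units with their SE, and a gene is called higher or lower when limma's adjusted p over 45037 probe sets is under 0.05. Array medians were 4.37 to 5.70 in pull-down and 6.04 to 6.24 in the other extracts, so the median gene read -0.64 in pull-down against whole brain and -0.66 against supernatant. Calls of members and pathway lists were therefore also read after quantile normalization of all arrays and after centring each array on its median. Cell markers, Homer1 and opposite calls among the probe sets of a gene were read as deposited only. A difference given without a scaling is as deposited. The 18S ribosomal control read 6.83 to 11.14 in pull-down and 13.79 to 14.42 elsewhere, and the 3′ minus 5′ difference of Gapdh was 3.29 to 5.96 against 2.31 to 2.95. Array 1 of the sleep-deprived and arrays 3 and 11 of the control pull-downs stood apart in these measures. Against whole brain 3 of the 6 Homer1 probe sets were higher in pull-down and 2 lower. The mean level of the neuron markers was 9.79 to 11.38 in pull-down, 10.51 to 10.75 in supernatant and 11.18 to 11.34 in whole brain, so the pull-down range overlapped both others, which did not overlap each other. As deposited, mean marker levels of astrocytes, oligodendrocytes and endothelial cells lay below those of whole brain in all pull-downs. They were 7.93 to 8.46 against 9.37 to 9.56 for astrocytes (4 of 6 genes lower, 1 higher). For oligodendrocytes they were 7.83 to 9.01 against 10.21 to 10.45 (3 of 4 lower). For endothelial cells they were 4.21 to 5.26 against 7.27 to 7.45 (4 of 4 lower). Of the 7 neuron markers 1 was called higher and 3 lower. Of 3 excitatory neuron markers 2 were higher and 1 lower, and of 5 inhibitory ones 1 was higher and 3 lower. In the remaining lists 0 were higher, with 5 of 5 lower for microglia, 2 of 3 for choroid plexus, 2 of 2 for red blood cells and 4 of 4 for striated muscle. Of all genes 12.9% were higher and 68.8% lower on these values, whose array medians were also lower in pull-down. Log2 intensities have no 0, so no marker is absent by value. In such bulk extracts fewer cells of a type and less RNA per cell cannot be told apart, and the part of cell makeup in the results below was not tested.

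Against whole brain, 20 of the 81 genes were higher in pull-down and 41 were lower, and 20 were not called. Of all 18193 genes 12.9% were higher and 68.8% lower, and the median difference was -0.41 for the members against -0.64 for all genes. The members spanned -3.66 (Atp5b, the catalytic beta subunit of the ATP synthase) to 1.85 (Ndufs7, an iron-sulfur core subunit of complex I), so subunits of the same pathway lay far apart on both sides. The split depended on the scaling: quantile normalization gave 18 higher and 38 lower (all genes 43.6% and 17.7%), and centring gave 51 and 10 (63.5% and 10.4%). Called in the same direction in all 3 scalings were 15 members as higher (18.5%, against 12.5% of all genes) and 10 as lower (12.3% against 10.2%). The higher 15 were Ndufs7, Ndufs4, Ndufc2, Ndufv2, Ndufc1, Ndufv3, Ndufb6, Ndufa5, Ndufv1 and Ndufb11 of complex I with Sdhd, Uqcrb, Uqcrc2, Cox5a and Atp5pb. All of these except Uqcrb and Ndufv3, which has a single probe set, had another probe set called lower as deposited. The lower 10 were Ndufa9, Ndufs5, Uqcrh, Uqcrq, Uqcrc1, Cox4i1, Atp5b, Atp5g1, Atp5g2 and Atp5mpl.

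**Figure D1:**
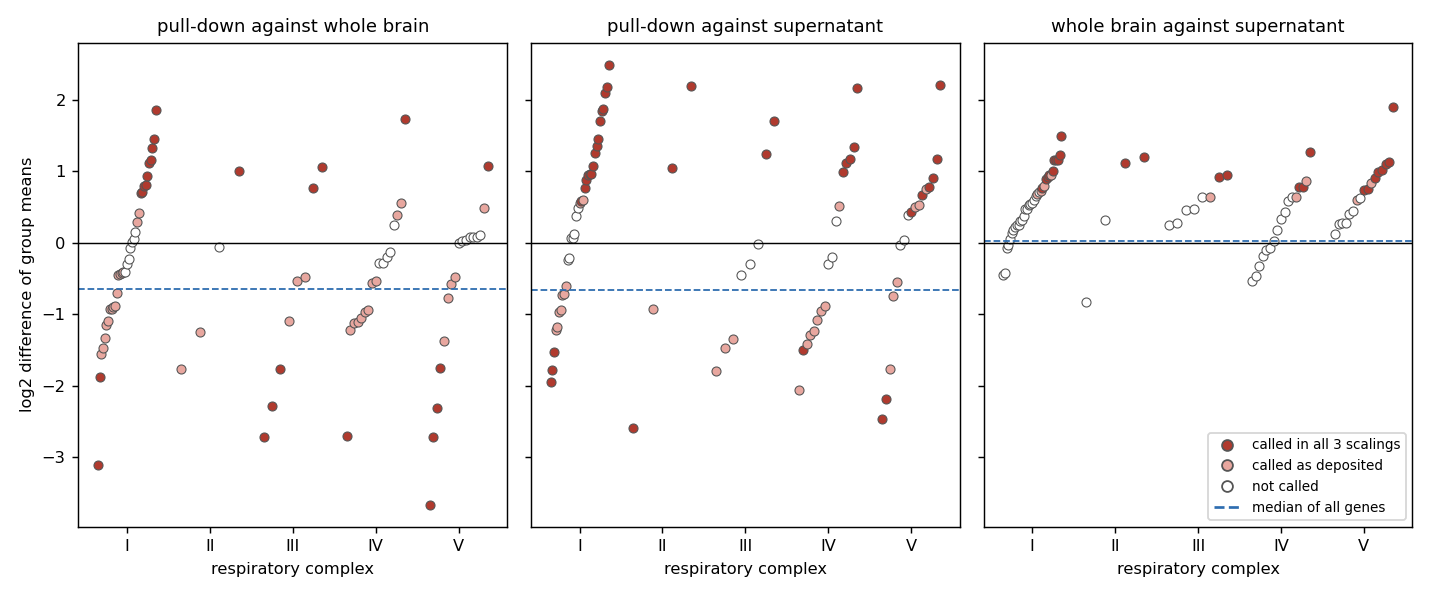
Difference of group means (log2) of each of the 81 genes, one point per gene, by respiratory complex, for pull-down against whole brain, pull-down against supernatant and whole brain against supernatant. Filled points were called on the deposited values (dark where called in the same direction in all 3 scalings), open points were not called, and the dashed line is the median of all genes. The first panel runs from -3.66 (Atp5b) to 1.85 (Ndufs7), and in the third 70 of 81 points lie above 0.

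Against supernatant, 37 members were higher in pull-down and 28 lower, where 17.4% of all genes were higher and 58.7% lower. The median difference was 0.30 for the members and -0.66 for all genes, but after quantile normalization both medians were 0.19, with 36 members higher and 21 lower. After centring 52 were higher and 7 lower, and 31 members (38.3%, against 17.1% of all genes) were higher in all 3 scalings and 7 (8.64% against 9.05%) lower. Both comparisons use the same 12 pull-down arrays, so they are not independent of each other. The members are also brighter than most genes: over the pull-downs the array medians averaged 10.19 for members and 5.71 for all genes. The shares called in all 3 scalings were not compared at equal brightness.

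Complex I had 12 of 35 genes higher and 16 lower against whole brain (34.3% and 45.7%, all genes 12.9% and 68.8%). It had 18 higher and 10 lower against supernatant (51.4% and 28.6%, all genes 17.4% and 58.7%). Quantile normalization gave 11 and 15, and 17 and 8, in the same order, and centring 24 and 2, and 25 and 3. The shares of all genes were 43.6% and 17.7%, and 37.5% and 17.6%, after quantile normalization. After centring they were 63.5% and 10.4%, and 54.4% and 9.15%. Ndufs7, which carries the last iron-sulfur cluster before ubiquinone, read 11.76, 12.22 and 12.88 in pull-down (lowest, median and highest of 12), 10.27, 10.43 and 10.69 in whole brain (of 8) and 10.31, 10.61, 10.10 and 9.80 in supernatants 15, 14, 16 and 13. Every pull-down array lay above every other array, with a difference of 1.85 ± 0.15 from whole brain (adjusted p = 2.76e-11) and of 2.10 ± 0.19 from supernatant (3.38e-10). Its second probe set, 1451312_at, was lower against both (-1.14 and -0.73). Ndufa9, an accessory subunit where the matrix and membrane arms meet, read 6.27, 6.91 and 8.35 in pull-down, 10.03, 10.12 and 10.19 in whole brain and 9.35, 8.96, 8.76 and 8.76 in the supernatants. It was low in all 12 pull-down arrays without overlap, at -3.11 ± 0.18 from whole brain (1.59e-13) and -1.95 from supernatant (4.23e-08).

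Among the other core subunits of complex I, Ndufv1, which binds NADH, was higher against both (0.71 and 1.25), and its neighbour Ndufv2 was as well (1.16 and 1.85). Ndufs1, the largest iron-sulfur subunit, was lower against both as deposited (-0.89 and -0.96), which turned to 0.26 and 0.21 after centring. Accessory subunits went both ways: Ndufs4, whose loss in mice models Leigh syndrome, was at 1.44 and 2.17 and Ndufc2 at 1.33 and 2.49, while Ndufs5 was at -1.87 and -0.72. Against supernatant Ndufs5 was not among the genes called lower in all 3 scalings. As deposited, Ndufv1, Ndufv2, Ndufs4 and Ndufc2 each had another probe set called lower in both comparisons. The probe sets of each of these genes ranged over 2.72 to 4.51 log2 units against whole brain and 3.07 to 5.26 against supernatant. Ndufa4 was not called against whole brain (0.05 ± 0.15, adjusted p = 0.752) and higher against supernatant (0.96). Its low-expressed relative Ndufa4l2, known as hypoxia-induced, was at -1.10 against whole brain as deposited but at 0.10 and 0.06 after quantile normalization and centring. Against supernatant Ndufa4l2 was called lower in all 3 scalings.

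**Figure D2:**
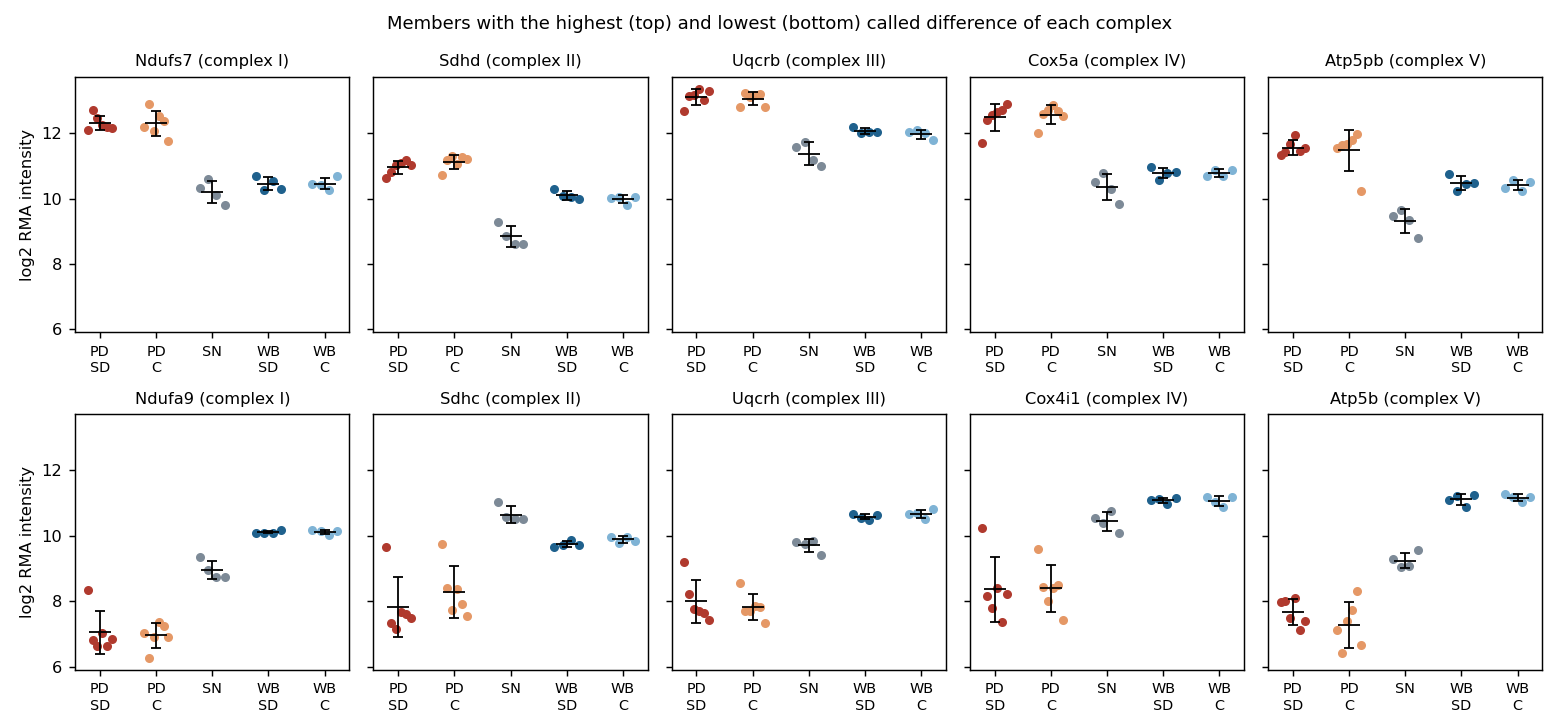
Log2 RMA intensity on each array of the members with the highest (top row) and lowest (bottom row) called difference between pull-down and whole brain in each complex, with bars for the mean and SD of a group. PD is pull-down, SN supernatant, WB whole brain, SD (on the axis) sleep-deprived and C control. Pull-down points of Ndufs7 lie at 11.76 to 12.88, above all whole-brain points (10.27 to 10.69), and those of Atp5b at 6.43 to 8.33, below all of them (10.88 to 11.27).

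The 4 genes of complex II, succinate dehydrogenase, did not move together. Sdhd, a membrane anchor, read 10.62, 11.08 and 11.29 in pull-down, 9.80, 10.04 and 10.30 in whole brain and 9.29, 8.87, 8.61 and 8.61 in the supernatants, at 1.00 ± 0.13 from whole brain (adjusted p = 9.68e-08) and 2.19 ± 0.16 from supernatant (1.28e-11). Sdhc, the other anchor, read 7.15, 7.70 and 9.75 in pull-down, 9.67, 9.81 and 9.98 in whole brain and 11.02, 10.58, 10.50 and 10.50 in the supernatants. By these probe sets the anchors lay at opposite ends: all pull-down values of Sdhd were above all others, and those of Sdhc were below all others except in pull-down control 3, which reached 9.75. Sdhc was at -1.77 ± 0.26 and -2.60 ± 0.33 from whole brain and supernatant, and the first was not called after centring (-0.61, adjusted p = 0.0626). The second Sdhd probe set, 1428235_at, lay on the side of Sdhc (-2.15 and -1.22). Sdhb, the iron-sulfur subunit, was lower (-1.25 and -0.93), but at -0.09 (adjusted p = 0.707) and 0.24 after centring. Sdha, the succinate-oxidising flavoprotein, was not called against whole brain (-0.06 ± 0.13, adjusted p = 0.68) and was higher against supernatant (1.05).

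Complex III had 2 of 8 genes higher and 6 lower against whole brain (25% and 75%, all genes 12.9% and 68.8%). It had 2 higher and 3 lower against supernatant (25% and 37.5%, all genes 17.4% and 58.7%). Quantile normalization gave 2 and 4, and 4 and 3, in the same order, and centring 4 and 3, and 4 and 0. Uqcrb, a small matrix-side subunit, read 12.68, 13.15 and 13.35 in pull-down, 11.77, 12.02 and 12.20 in whole brain and 11.58, 11.73, 11.18 and 10.99 in the supernatants. It was higher in all 12 pull-down arrays without overlap, by 1.06 ± 0.13 (adjusted p = 5.05e-08) and 1.70 ± 0.16 (1.25e-09). Uqcrh, the hinge protein by which cytochrome c docks, read 7.34, 7.74 and 9.21, then 10.49, 10.65 and 10.82, and 9.80, 9.76, 9.85 and 9.42 in the same order of extracts. It was lower without overlap, at -2.72 ± 0.18 (1.49e-12) and -1.80 ± 0.23 (1.51e-07), and the call against supernatant was lost after centring (-0.62, adjusted p = 0.0582). The paired core proteins diverged, with Uqcrc1 at -1.76 and -1.48 and Uqcrc2 at 0.76 and 1.23, in both cases called in all 3 scalings against whole brain. A second Uqcrc2 probe set, 1428631_a_at, was lower (-1.71 and -0.71), on the side of Uqcrc1, whose own difference from supernatant was not called after centring (-0.30, adjusted p = 0.301). Uqcrfs1, the Rieske iron-sulfur protein, was at -0.54 against whole brain as deposited, but at 0.19 and 0.62 after quantile normalization and centring.

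Complex IV, cytochrome c oxidase, had 3 of 17 genes higher and 9 lower against whole brain (17.6% and 52.9%, all genes 12.9% and 68.8%). It had 6 higher and 8 lower against supernatant (35.3% and 47.1%, all genes 17.4% and 58.7%). Quantile normalization gave 3 and 5, and 6 and 3, in the same order, and centring 10 and 1, and 9 and 1. Cox5a, a subunit on its matrix side, read 11.70, 12.61 and 12.89 in pull-down, 10.56, 10.79 and 10.97 in whole brain and 10.51, 10.78, 10.30 and 9.82 in the supernatants. Cox4i1, its usual partner in assembly, read 7.37, 8.31 and 10.24 in pull-down, 10.87, 11.11 and 11.20 in whole brain and 10.54, 10.40, 10.75 and 10.08 in the supernatants. All pull-down values of Cox5a were above all others, at 1.74 ± 0.16 from whole brain (adjusted p = 2.2e-10) and 2.16 ± 0.20 from supernatant (4.77e-10). Those of Cox4i1 were below all whole-brain values, at -2.70 ± 0.26 (9.52e-10), and only pull-down after sleep deprivation 1, at 10.24, reached into the supernatant range (-2.06 ± 0.33, 4.51e-06). After centring the supernatant difference was not called (-0.88, adjusted p = 0.0542). Another probe set of Cox5a was called lower against whole brain as deposited, on the side of Cox4i1. The Cox5a probe sets ranged over 2.83 log2 units in that comparison.

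Among the other forms found in most tissues, Cox6a1 was higher against both extracts (0.56 and 1.34), as was Cox6c (0.39 and 1.17), and Cox8a was lower (-1.22 and -1.29). Another probe set of Cox6a1 was called lower in both comparisons, its probe sets ranging over 3.13 and 4.00 log2 units. Cox6c also had a probe set called lower against whole brain, with a range of 1.72. Against whole brain Cox6a1 was not called after quantile normalization (0.17, adjusted p = 0.0732), and Cox8a was called in neither comparison after centring (-0.07, adjusted p = 0.741, and -0.12, 0.658). Cox6b1 (0.25, adjusted p = 0.216), Cox7a2 (-0.28, 0.0665), Cox7a2l, which helps complexes III and IV associate (-0.28, 0.129), and Cox5b (-0.13, 0.372) were not called against whole brain. The isoforms known from muscle (Cox6a2, Cox7a1, Cox8b), testis (Cox6b2, Cox7b2, Cox8c) and hypoxic or lung tissue (Cox4i2, with Ndufa4l2 of complex I) formed a group of 8 low-intensity probe sets. As deposited 7 of the 8 were called lower against whole brain (all genes 68.8%), and all 8 lay between -1.13 and -0.20. After quantile normalization 0 were lower and 2 higher (Cox6a2 and Cox7b2), where 17.7% and 43.6% of all genes were. After centring also 0 were lower and 2 higher (all genes 10.4% and 63.5%), with all 8 differences above 0 (0.03 to 0.95). The call for this group against whole brain therefore changed with the scaling. Against supernatant, Cox4i2 and Ndufa4l2 were among the 7 members called lower in all 3 scalings, and the other isoforms of the group were not.

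Complex V had 2 of 17 genes higher and 8 lower against whole brain (11.8% and 47.1%, all genes 12.9% and 68.8%). It had 9 higher and 5 lower against supernatant (52.9% and 29.4%, all genes 17.4% and 58.7%). Quantile normalization gave 1 and 11, and 7 and 5, in the same order, and centring 11 and 4, and 12 and 2. Atp5b read 6.43, 7.44 and 8.33 in pull-down, 10.88, 11.19 and 11.27 in whole brain and 9.28, 9.04, 9.08 and 9.56 in the supernatants. It was low in every pull-down array without overlap, at -3.66 ± 0.19 from whole brain (adjusted p = 2.04e-14), the lowest value of the 81, and at -1.76 ± 0.24 from supernatant (4.15e-07), a call lost after centring (-0.59, adjusted p = 0.0924). Atp5a1, the alpha subunit that alternates with beta in the catalytic ring, read 12.89, 13.38 and 13.58 in pull-down and 13.24, 13.34 and 13.41 in whole brain, and these ranges overlapped (0.04 ± 0.12, adjusted p = 0.771). Atp5c1, the gamma subunit of the rotating shaft, was at -0.49 and 0.50, and the first turned to 0.67 after centring. Atp5pb, a subunit of the stator stalk, read 10.23, 11.60 and 11.98 in pull-down, 10.23, 10.46 and 10.76 in whole brain and 9.46, 9.65, 9.35 and 8.78 in the supernatants. It was higher (1.07 ± 0.18, 5.49e-06, and 2.21 ± 0.22, 3.19e-09), with pull-down control 11 alone, at 10.23, within the whole-brain range. Its probe set designed for 1 gene was lower against whole brain (-1.21) and supernatant (-0.73).

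The genes Atp5g1, Atp5g2 and Atp5g3 encode the same mature c subunit, which forms the membrane ring of the rotor, with different import signals. Atp5g1 read 5.73, 6.13 and 7.40 in pull-down against 8.36, 8.60 and 8.90 in whole brain, and Atp5g2 read 3.59, 5.12 and 6.30 against 7.69, 7.88 and 8.15. Atp5g3 read 10.51, 11.38 and 11.58 against 11.03, 11.11 and 11.39. The former pair was lower without overlap (-2.31 ± 0.18 and -2.72 ± 0.23, adjusted p = 1.47e-11 and 6.52e-11) in all 3 scalings, whereas Atp5g3 overlapped (0.07 ± 0.14, 0.628). Against supernatant they were at -2.19, -2.46 and 0.67, all called.

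**Figure D3:**
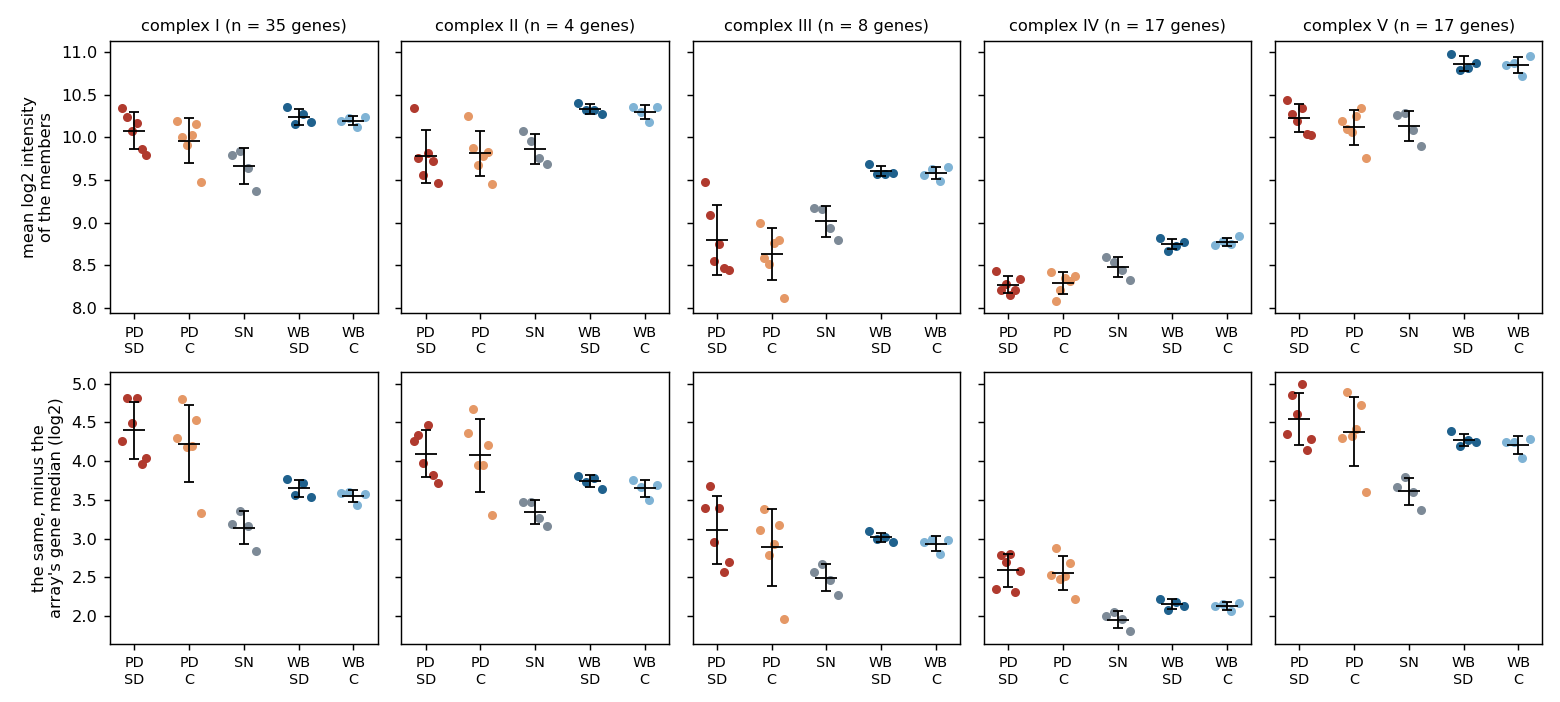
Mean log2 intensity of the members of each complex on every array by group (top) and the same minus the array's median over all genes (bottom), with bars for the mean and SD of a group. Labels are as PD pull-down, SN supernatant, WB whole brain, SD sleep-deprived and C control. Complex I sits at 9.48 to 10.34 in pull-down and 10.12 to 10.36 in whole brain as deposited, and at 3.33 to 4.82 and 3.44 to 3.76 above the gene median.

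Complex means were also taken on every array. The mean of complex I was 10.02 ± 0.23 (SD) over the 12 pull-downs, 9.66 ± 0.21 over the 4 supernatants and 10.22 ± 0.08 over the 8 whole-brain arrays. For complex III it was 8.71 ± 0.36, 9.02 ± 0.18 and 9.59 ± 0.06, for complex IV 8.28 ± 0.11, 8.48 ± 0.12 and 8.76 ± 0.05, and for complex V 10.17 ± 0.19, 10.13 ± 0.18 and 10.86 ± 0.09. Complex II was at 9.80 ± 0.28, 9.87 ± 0.18 and 10.32 ± 0.07. Whole brain was thus highest in all 5 as deposited, but measured above each array's gene median pull-down was highest for complexes I (4.31 ± 0.43 against 3.60 ± 0.10 in whole brain), II (4.09 ± 0.38 against 3.70 ± 0.10), IV (2.57 ± 0.21 against 2.14 ± 0.05) and V (4.46 ± 0.39 against 4.24 ± 0.10). For complex III the values were 3.00 ± 0.46 and 2.97 ± 0.08. The gaps of complexes III and V were smaller than the SD between pull-downs, and these means were not tested.

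The direction of a member also depended on which of its probe sets was read. The 81 genes have 164 probe sets, and 48 genes have several. Against whole brain 18 of these 48 (37.5%) had probe sets called in opposite directions as deposited, against 23.6% of the 9010 genes with several. Opposite calls were not counted in the other scalings, in which they may differ. Ndufc2 was at 1.33 by 1455036_s_at but at -3.18 by 1416366_at, Sdhd at 1.00 by 1437489_x_at but at -2.15 by 1428235_at, and Ndufv1 at 0.71 by 1456015_x_at but at -3.17 by 1415967_at. Cox5a was at 1.74 and 1.48 by the first and second of its probe sets and at -1.10 by 1448153_at.

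Of the 20 genes called higher, 17 had another probe set called lower, and Ndufa2 and Ndufv3 had a single probe set. Of the 41 lower genes 37 were lower in every probe set they have (24 of them have 1), among them Atp5b, Ndufa9, Uqcrh and Sdhc. The suffix of a probe set tells its design: _at for a single transcript, _a_at for several transcripts of a gene, and _s_at or _x_at for sequence shared with other transcripts. Of 29 members read by an _at probe set 0 were higher and 22 lower (all such genes 9.54% and 71.6%), and of 29 read by an _a_at probe set 13 were higher and 9 lower (17.4% and 69%). After quantile normalization these counts were 3 and 14 for _at (all such genes 42.5% and 16.9%) and 10 and 12 for _a_at (39.6% and 26.7%). After centring they were 11 and 5 for _at (63.6% and 10%) and 24 and 3 for _a_at (54.7% and 16.3%). The _at probe sets of members were also dimmer, with a median level of 8.10 against 11.30 over all arrays. Opposite calls were also found for 22 of 48 genes against supernatant (45.8%, all genes 30.4%) and for 0 of 48 between whole brain and supernatant (1.91%). What sets the probe sets of a gene apart was not tested, and the oligonucleotide positions were not used here.

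**Figure D4:**
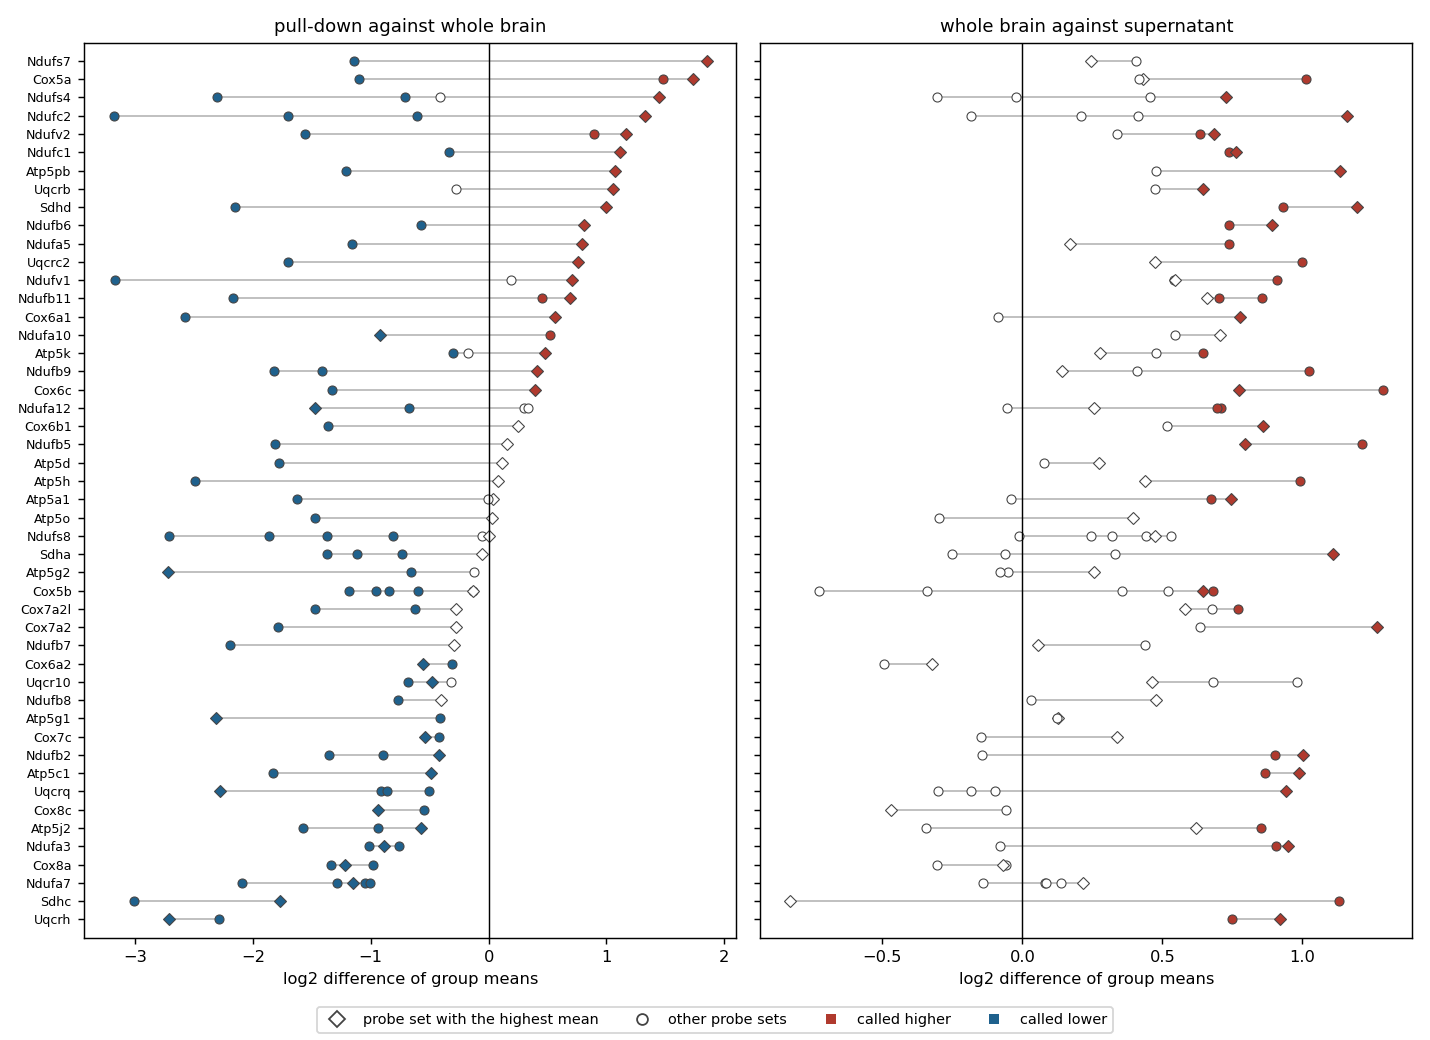
Difference of group means (log2) for every probe set of the 48 members with several, one row per gene, in pull-down against whole brain (left) and whole brain against supernatant (right). Values and calls are as deposited. Diamonds are the probe set with the highest mean and circles the others, red is called higher, blue called lower and open not called. On the left 18 rows hold both red and blue, Ndufc2 spanning -3.18 to 1.33, and on the right no row holds both.

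Whole brain and supernatant, which are both total RNA, differed for the members mostly in 1 direction. As deposited, of the 81 genes 34 were higher in whole brain and 0 lower, against 13.2% and 1.31% of all genes, and 70 of 81 differences were above 0. Before adjustment 45 members were higher and 3 lower at a limma p under 0.05, where 3722 and 1015 of all 18193 genes were. The median difference was 0.58 for the members and 0.02 for all genes. By complex 14 of 35 genes of complex I were higher, 2 of 4 of complex II, 3 of 8 of complex III, 5 of 17 of complex IV and 10 of 17 of complex V.

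The largest differences were those of Atp5b (1.90 ± 0.26, adjusted p = 1.59e-05) and of Ndufa1, a small membrane-arm subunit (1.49, 1.6e-05). Cox7a2, the form of its subunit found in most tissues, was at 1.27 (4.86e-05), Ndufb3 at 1.22, Sdhd at 1.20, Sdha at 1.11 and Atp5pb at 1.13. Uqcrq and Uqcrh of complex III were at 0.94 and 0.92, and Cox6b1 was at 0.86. The core subunits Ndufs1 (-0.07, adjusted p = 0.91), Uqcrc1 (0.28, 0.588) and Uqcrfs1 (0.24, 0.514) were not called. The lowest were Sdhc (-0.83 ± 0.35, 0.143) and the low-intensity Cox4i2 (-0.53, 0.12). Atp5b read 10.88 to 11.27 in whole brain and 9.04 to 9.56 in supernatant, without overlap.

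Quantile normalization gave 40 higher and 4 lower (all genes 17% and 8.04%) and centring 25 and 2 (9.32% and 2.37%), and 25 members (30.9%, against 8.66% of all genes) were higher in all 3. The count was 24 without supernatant 13, 27 without supernatant 16 and 43 without pull-down control 11, which enters only the estimate of the spread. Over probe sets with a mean above 9, where the arrays read brightest, 38 of 51 members and 1139 of 2191 genes were higher, and the medians were 0.66 and 0.52. Formaldehyde perfusion is described for the pull-down and its supernatant and not for whole brain, so extract and fixation cannot be told apart. Mean marker levels were lower in every supernatant than in every whole-brain array for astrocytes (8.44 to 8.80 against 9.37 to 9.56), oligodendrocytes (9.06 to 9.62 against 10.21 to 10.45), endothelial cells (6.02 to 6.71 against 7.27 to 7.45) and neurons (10.51 to 10.75 against 11.18 to 11.34). Of these markers 2 of 6, 2 of 4, 3 of 4 and 3 of 7 were called higher in whole brain and 0 lower. Higher were also 1 of 3 excitatory neuron, 3 of 5 inhibitory neuron, 1 of 5 microglia and 1 of 3 choroid plexus markers. For red blood cells it was 0 of 2 and for striated muscle 0 of 4, and 0 were lower in these lists. The part of cell makeup in the result was not tested.

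Sleep deprivation was compared within pull-down (6 against 6 arrays) and within whole brain (4 against 4). In pull-down 0 of 81 members were called, as were 0% of all genes, and at an unadjusted p under 0.05 limma found 0 members and, of 18193 genes, 125 higher and 70 lower. In whole brain 0 of 81 were called, against 12 of all genes (0.066%), and 1 member was higher and 1 lower at an unadjusted p under 0.05 (471 and 1450 of all genes). Ndufb2, an accessory subunit of complex I, read 8.77, 8.54, 9.02 and 8.63 in sleep-deprived mice 21, 19, 18 and 20 and 8.24, 8.25, 8.52 and 8.53 in controls 23, 24, 22 and 25. Its groups did not overlap, and its difference was 0.35 ± 0.13 (limma, adjusted p = 0.381). Cox6b2, the testis form, read 6.28, 6.40, 6.46 and 6.45 against 6.61, 6.73, 6.66 and 6.62, likewise without overlap (-0.26 ± 0.10, limma, adjusted p = 0.401). In pull-down these genes read 0.23 (95% confidence interval -0.32 to 0.78) and -0.26 (-0.89 to 0.38).

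The intervals bound what these arrays could hide. For the 81 members the 95% intervals ran from -0.47 to 0.69 at the widest in whole brain and from -1.34 to 1.15 in pull-down, where the median SE was 0.26 against 0.11. The median difference was 0.02 in whole brain (47 of 81 above 0, all genes -0.05) and 0.07 in pull-down (60 of 81 above 0, all genes -0.03). Without the 3 pull-down arrays that stood apart the latter median was -0.03. Among pull-down values, the gene furthest from 0 in each complex was Ndufa8 (0.53 ± 0.29), Sdhc (-0.47 ± 0.42), Uqcrfs1 (0.25 ± 0.24), Cox6b2 (-0.26 ± 0.30) and Atp5g2 (-0.56 ± 0.36), all with an adjusted p of 0.999999. In whole brain Sdhc was at -0.14 ± 0.11, Uqcrq at -0.13 ± 0.12 and Atp5mpl at -0.15 ± 0.14. The difference between both effects, tested as an interaction, was called for 0 of 81 members and 0% of all genes, with 0 members and, of all genes, 39 higher and 26 lower at an unadjusted p under 0.05. Its widest values were those of Atp5g2 (-0.52 ± 0.48) and Ndufb8 (-0.52 ± 0.42).

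**Figure D5:**
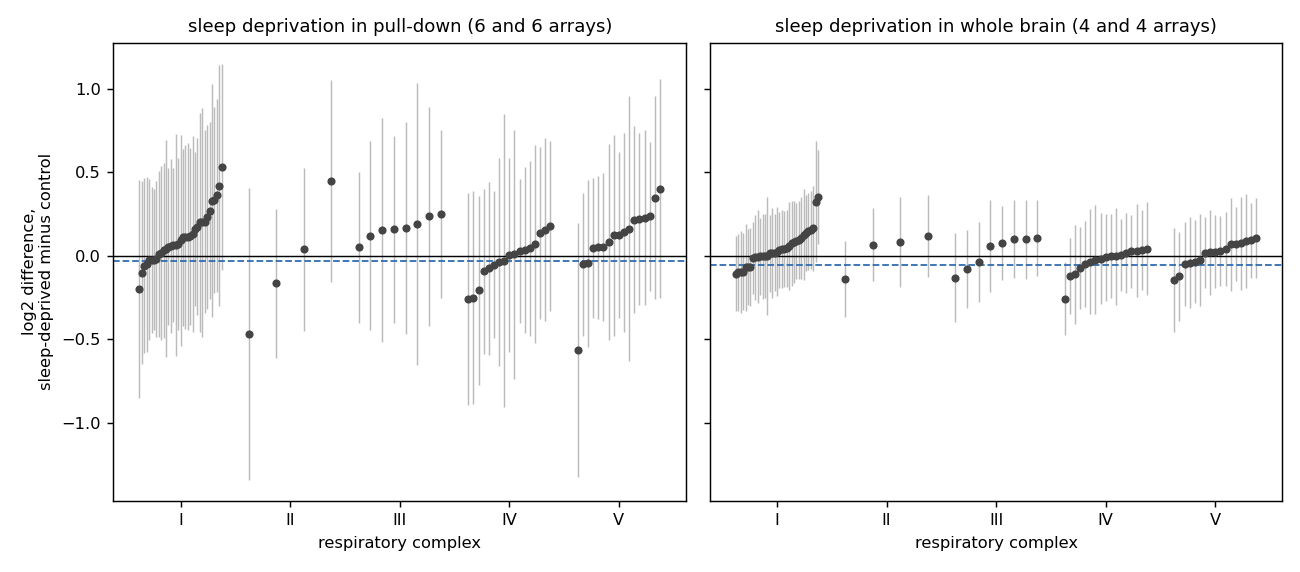
Difference between sleep-deprived and control mice (log2) of each of the 81 genes by respiratory complex in pull-down (left, 6 and 6 arrays) and whole brain (right, 4 and 4 arrays). Points are estimates, grey bars 95% confidence intervals and the dashed line the median of all genes. No gene was called, and the bars reach from -1.34 to 1.15 on the left and from -0.47 to 0.69 on the right.

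Other genes of the pathway were read by lists. Of 47 assembly factors, which build the complexes, 5 were higher and 29 lower in pull-down against whole brain, where 12.9% and 68.8% of all genes were. That split turned to 28 and 9 after quantile normalization and to 29 and 4 after centring. Coa6, which serves copper delivery to complex IV, was at 1.71 and Lrpprc, which keeps mitochondrial mRNA stable, at -2.18. Of 18 regulators of mitochondrial gene expression 4 were higher and 9 lower (10 and 5 after quantile normalization, 10 and 4 after centring), with the mitochondrial RNA polymerase Polrmt at 1.35, Yy1 at 0.79 and the GABP subunit genes Gabpa and Gabpb2 at -1.95 and -2.29. Of 16 genes of the tricarboxylic acid cycle and pyruvate dehydrogenase 4 were higher, led by the citrate synthase gene Cs (1.44), and 6 lower, led by Ogdh (-2.65). Quantile normalization gave 7 and 5 and centring 11 and 4. Of 15 genes of mitochondrial transport 8 were higher and 6 lower (8 and 5 after quantile normalization, 9 and 2 after centring), with the import genes Timm44 at 2.55 and Timm17a at -2.15. As deposited Cycs, which encodes cytochrome c, was at -1.46, and Cyc1, the cytochrome c1 of complex III that the symbol patterns leave out, at -0.82. Of 6 measured genes listed as subunits outside the patterns, 1 was higher and 4 lower as deposited. Quantile normalization gave 2 and 2 and centring 4 and 0, so these directions too rested on the scaling.

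Between whole brain and supernatant 10 of the 16 tricarboxylic acid cycle genes were higher and 0 lower as deposited, with Pdha1 at 1.20 and Dlat at 1.06, where 13.2% and 1.31% of all genes were. Quantile normalization gave 11 and 1 and centring 7 and 0. Of 15 transport genes 6 were higher, such as the channel gene Vdac3 (1.57), and 1 was lower, Tomm70a (-0.64), with 8 and 2 after quantile normalization and 5 and 0 after centring. Of 47 assembly factors 3 were higher and 1 lower (11 and 4 after quantile normalization, 2 and 2 after centring), and of 18 regulators 2 were higher (Polrmt at 1.10 and Nrf1 at 0.80) and 1 lower (Esrra at -0.93), with 3 and 4 after quantile normalization and 1 and 1 after centring. ND5, a complex I subunit gene of mitochondrial DNA and the 1 such transcript measured here, was at -0.01 in pull-down against whole brain (adjusted p = 0.957). After quantile normalization it was lower and after centring higher (-0.35 and 1.15), so its direction rested on the scaling. Between whole brain and supernatant it was at 0.15 (0.708).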

How the data were processed

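Brain RNA of 24 samples was hybridised to arrays of 45101 probe sets. The authors deposited a log2 value per probe set and array, made with the affy package and RMA per the submitters' processing notes, with no version. No source used here says whether all extracts were normalized together. The deposited log2 values were used unchanged. Leaving out 64 controls, 45037 probe sets were tested, of which 34945 carry 1 gene symbol, 932 several and 9160 none in the platform annotation. Members and lists were chosen with earlier results of these data known. Named members are fixed core subunits and isoforms, plus up to 2 highest and 2 lowest called members per complex and comparison, or the furthest from 0 where none was called; exceptions are the c-subunit and probe-set examples and Ndufv2, Ndufc1, Cox6c and the lowest whole-brain members, chosen after their values were seen.

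Models were fitted with limma 3.58.1 in R 4.3.3 (lmFit, eBayes, two-sided, Benjamini-Hochberg, threshold 0.05). Extracts were compared in 1 fit of all 24 arrays and 5 groups, with pull-down and whole brain each the equal-weight mean of their treatments; sleep deprivation was fitted within an extract, and its interaction on 20 arrays. The script was tested on simulated data. Alternatives were quantile normalization, centring, array weights, limma-trend, filters on the mean (above 6 and, chosen after seeing the data, above 9), other probe sets, other arrays in the fit and leaving arrays out. Groups come from the labels. Nothing says more than that arrays are separate samples, so p-values measure the spread between these samples, and their number limits the precision.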

Additional observations from a re-analysis of the deposited data

Results flagged for a closer look

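Of 75 group values checked (5 complex means and 10 members in 5 groups), 9 had a sample far from the others of its group, where chance gives about 1 in 20. Pull-down after sleep deprivation 1 stood above its group in Ndufa9 (8.35, next 7.03), Sdhc (9.65, next 7.68) and Cox4i1 (10.24, next 8.42), and this array has the second highest 18S signal of the pull-downs (11.04, whose part was not tested). Pull-down control 11, with the highest array median of that extract (5.70), read lowest in Atp5pb (10.23, next 11.53). Whole brain after sleep deprivation 21 stood above its group in the complex III mean (9.69, next 9.59) and in Uqcrb (12.20, next 12.03). Whole brain after sleep deprivation 20 was highest in Ndufa9 (10.16, next 10.10), whole-brain control 22 lowest in Sdhd (9.80, next 10.03) and supernatant 15 highest in Sdhc (11.02, next 10.58).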

How the results depend on the processing

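In pull-down against whole brain the 20 higher genes became 51 after centring and 13 with probe sets designed for 1 gene (of 77 genes), and the 41 lower became 10 after centring, 13 with means above 9 and 109 when all probe sets were counted. Against supernatant the 28 lower became 7, 5 and 85 under the same 3 choices. The totals behind these counts differ, as the 81 members have 164 probe sets and fewer members pass the filter on means above 9. Of all 45037 probe sets 34378 were lower in pull-down against whole brain and 30365 against supernatant, and 4006 were higher in whole brain against supernatant. In whole brain against supernatant the 34 higher became 52 with array weights, 53 with only the compared arrays in the fit and 60 over all probe sets, and the 0 lower became 4 after quantile normalization, 2 after centring, 5 with array weights, 6 with only the compared arrays, 2 without the 3 arrays that stand apart and 1 without the 2 with the most 18S. Leaving out 1 array at a time gave 19 to 20 higher and 41 to 43 lower (pull-down against whole brain), 34 to 40 and 27 to 29 (against supernatant) and 24 to 43 and 0 to 1 (whole brain against supernatant), and sleep deprivation stayed at 0 called members in each alternative run. Signs of named genes turned as follows, and the cause was not tested. Against whole brain, centring gave Ndufs1 0.26, Sdha 1.10, Uqcrfs1 0.62, Cox5b 1.02, Atp5c1 0.67, Ndufa4l2 0.059, Cox4i2 0.19, Cox6a2 0.60, Cox6b2 0.030, Cox7a1 0.046, Cox7a2 0.88, Cox7a2l 0.88, Cox7b2 0.95, Cox8b 0.10 and Cox8c 0.21, quantile normalization Uqcrfs1 0.19, Atp5a1 -0.27, Ndufa4l2 0.10, Cox4i2 0.20, Cox6a2 0.51, Cox6b2 0.090, Cox7b2 0.61, Cox8b 0.12 and Cox8c 0.26, and probe sets designed for 1 gene Ndufs4 -2.31, Sdhd -2.15, Atp5pb -1.21 and Atp5k -0.30. Against supernatant, centring gave Sdhb 0.24, Ndufs1 0.21, Uqcrfs1 0.88, Cox6a2 0.29, Cox6b2 0.22, Cox7a1 0.094 and Cox7b2 0.87, quantile normalization Uqcrfs1 0.36, Cox6a2 0.057 and Cox6b2 0.27, and probe sets designed for 1 gene Ndufc2 -2.77, Ndufs4 -1.85, Sdhd -1.22, Sdha -1.04, Atp5pb -0.73, Cox5b -0.60 and Atp5c1 -0.96. Between whole brain and supernatant, Uqcrq -0.30 turned with probe sets designed for 1 gene. Of the members, 4 (Ndufb4, Cox7a1, Cox7b2 and Cox7c) lay below the array median on all 24 arrays, where low signal limits a difference. No paired analysis was possible because the groups compared share fewer than 2 replicate numbers.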
